A study of Mus musculus with 12 samples.

Results

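The 7 urea cycle genes described here are Cps1, Otc, Ass1 and Asl, which encode enzymes of the cycle, Nags, which encodes the enzyme that makes the activator of Cps1, and Slc25a15 and Slc25a13, which encode mitochondrial carriers that serve it. They were chosen by name from 21911 protein-coding genes of the GENCODE M21 annotation, and all 7 were found in it. The mark measured was acetylation of histone H3 at lysine 9 (H3K9ac), which sits on active promoters and enhancers. It was profiled by chromatin immunoprecipitation and sequencing (ChIP-seq), and each gene was described by the H3K9ac peaks that overlapped its body or the 5 kb on either side of its start. The 6 H3K9ac libraries came from livers of adult mice: 2 libraries of C57BL/6J (B6), 2 of MSM/Ms (MSM), 1 of a hybrid with B6 as mother and MSM as father (F1 BM) and 1 of the reciprocal hybrid, with MSM as mother and B6 as father (F1 MB). Each library was labelled as the liver of a single genotype, the sex of the mice was not in the labels, and the 6 input libraries were not analysed here. B6 is the strain of the reference genome, MSM is an inbred line founded from wild mice of Japan, and the study used the mark to ask whether a short transposable element, inserted near a gene start in B6 and lacking in MSM, forms an edge of acetylated chromatin. The urea cycle genes were not the subject of that question.

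The urea cycle turns toxic ammonia into urea and takes place in hepatocytes, mainly those around the portal vein. Carbamoyl phosphate is made and joined to ornithine inside mitochondria, citrulline leaves for the cytosol, and the later steps yield arginine and then urea, while ornithine returns to the mitochondrion through a carrier. The genes are known to be controlled together by glucagon, glucocorticoids and the liver factors C/EBP and HNF4. Acetylation of H3 lysine 9 usually covers the first nucleosomes after an active start, and wide domains of it are typical of genes that a tissue transcribes strongly.

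RefSeq promoter sequences (build GRCm38.p6, 250 bases before to 50 after a start) were available for 5 of the 7 genes, with 6 sequences in all because Slc25a15 had 2 starts. Cps1 and Asl were not among them. The 250 bases before the start are printed for 3 of them, Otc for the fewest CpGs and Nags and Slc25a13 for the strain differences in covered length and width given below. Matches to the motifs searched are in capitals.
Otc (chrX:10252055-10252304, + strand): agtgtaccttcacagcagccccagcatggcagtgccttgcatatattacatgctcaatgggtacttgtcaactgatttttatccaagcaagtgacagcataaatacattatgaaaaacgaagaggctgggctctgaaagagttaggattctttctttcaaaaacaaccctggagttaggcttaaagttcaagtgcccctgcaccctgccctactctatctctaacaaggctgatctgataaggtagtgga
Nags (chr11:102145263-102145512, + strand): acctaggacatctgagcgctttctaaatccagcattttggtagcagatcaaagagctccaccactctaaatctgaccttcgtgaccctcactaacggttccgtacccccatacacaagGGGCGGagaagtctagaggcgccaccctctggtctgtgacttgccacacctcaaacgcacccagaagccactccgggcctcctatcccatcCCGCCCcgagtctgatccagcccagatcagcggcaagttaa
Slc25a13 (chr6:6217174-6217423, - strand): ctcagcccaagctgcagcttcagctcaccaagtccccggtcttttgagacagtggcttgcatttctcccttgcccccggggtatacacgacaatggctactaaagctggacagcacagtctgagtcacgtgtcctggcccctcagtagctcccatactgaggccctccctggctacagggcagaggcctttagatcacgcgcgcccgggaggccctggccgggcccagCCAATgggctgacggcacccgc
The Otc promoter window of 300 bases held 1 CpG (percentile 5.42 among 32841 promoters), the Nags window held 14 and the Slc25a13 window held 17. Ass1 had 27 CpGs, and the Slc25a15 windows had 15 and 51, the latter at percentile 99.3, against a median of 7 over all promoters. H3K9ac was therefore called at a start with almost no CpGs as well as at CpG-rich starts of the same pathway.

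Motifs were searched on both strands in these windows. GGGCGG (Sp1) was in 4 of the 6 windows, those of Ass1, Nags and both starts of Slc25a15, against 35.7% of all promoters, and CCAAT (NF-Y) was in 1, that of Slc25a13, with its first base at -22, against 37.4%. No window held TATAAA (the core promoter box, 13.6% of all promoters), TTGCNNAA (C/EBP, 10.8%), CAAAGTCCA (HNF4, 0.475%), TGACGTCA (CRE, 1.79%) or GTTAATNAT (HNF1, 0.801%). These are letter matches and not bound sites, and the absence of a match says only that these letters are not in this window.

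Of the regions upstream of a start, 2 are printed as well, each 300 bases of GRCm38 around the summit of the strongest peak, in the direction of the gene. The stretch before Nags had a called peak in all 6 livers. The one before Slc25a13 had a called peak in both MSM and both F1 libraries and in neither B6 library.
Upstream of Nags (chr11:102142676-102142975): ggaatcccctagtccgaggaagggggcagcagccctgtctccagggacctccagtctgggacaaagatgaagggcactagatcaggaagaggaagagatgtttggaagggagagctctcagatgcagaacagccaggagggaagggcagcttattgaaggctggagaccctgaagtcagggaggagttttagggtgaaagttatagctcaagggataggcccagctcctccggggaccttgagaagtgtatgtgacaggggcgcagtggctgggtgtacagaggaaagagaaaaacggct
Upstream of Slc25a13 (chr6:6220237-6220536): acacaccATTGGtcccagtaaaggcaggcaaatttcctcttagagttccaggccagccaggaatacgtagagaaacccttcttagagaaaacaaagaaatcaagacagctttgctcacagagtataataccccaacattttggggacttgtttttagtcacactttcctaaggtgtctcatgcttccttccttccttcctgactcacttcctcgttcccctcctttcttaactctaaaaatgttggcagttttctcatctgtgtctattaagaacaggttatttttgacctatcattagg
The capitals in the Slc25a13 stretch mark a CCAAT on the opposite strand, and the Nags stretch held no match to any motif. The Nags stretch was unique sequence: each of its 15 successive runs of 20 bases was found once in the 21 chromosomes of GRCm38. In the Slc25a13 stretch 13 of 15 runs were found once and the most frequent, a repeat of cttc, was found 371 times.

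The libraries differed in the number of peaks, from 11619 in B6 replicate 2 to 22968 in B6 replicate 1, and in the length under peaks, from 6.28 to 16.0 Mb in the same libraries. The MSM libraries lay between them and close to each other, with 17310 and 17584 peaks. F1 BM had 20173 peaks and the lowest median fold enrichment, 3.38 against 4.49 to 5.23 in the others, and F1 MB had 13235 peaks. Of the peaks in the lists, 23 (B6 replicate 2) to 41 (F1 BM) lay in the windows of the 7 genes. Fold enrichment is the ratio of the signal at a peak's summit to the background of the peak caller. Because the lists hold no read counts, a missing peak cannot be told from a peak too weak for a library's depth. In these whole-tissue samples, fewer acetylated cells and less acetylation per cell cannot be told apart.

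Every urea cycle gene was acetylated at its start in every liver. All 7 had a peak within 1 kb of the start in all 6 libraries, as did 23.6% of all protein-coding genes. The domain at the start, formed by joining peaks at most 500 bp apart and taken when it lay within 500 bp of the start, exceeded the median over all genes in most of them. The median width over the 7 genes was 5245 and 2513 bp in the B6 libraries, 1637 and 1645 bp in the MSM libraries, 5275 bp in F1 BM and 2819 bp in F1 MB. The median over all genes with a start domain was 634 to 1139 bp. The median percentile of the 7 widths among those genes was 82.9 and 83.1 in the MSM libraries and 95.1 to 98.7 in the other 4.

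**Figure D1:**
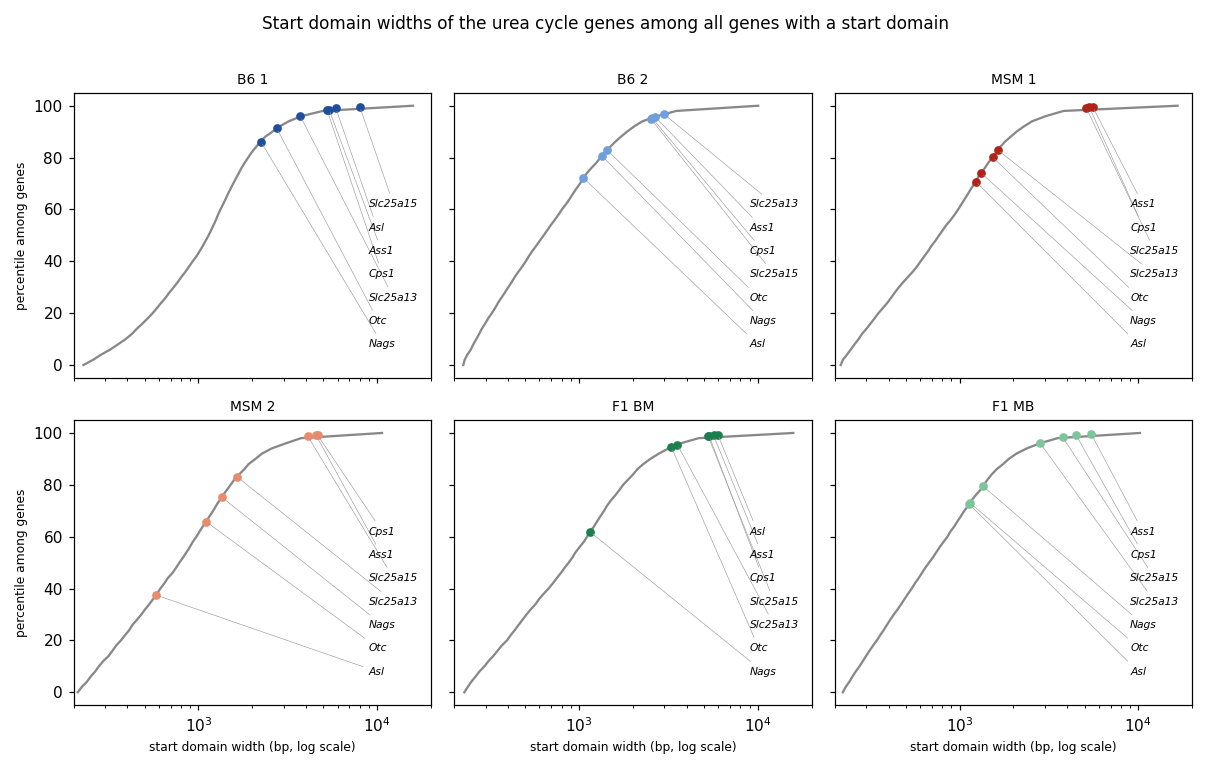
Width of the H3K9ac start domain (x axis, bp, log scale) against its percentile among all genes with a start domain (y axis) in each of the 6 libraries. The grey line is the distribution over all genes and the points are the 7 urea cycle genes, of which Cps1, Ass1 and Slc25a15 sit above the 95th percentile in every library.

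By mean width over the 6 libraries the order was Ass1 (4880 ± 1154 bp, SD, n = 6), Slc25a15 (4791 ± 1857 bp), Cps1 (4604 ± 1066 bp), Slc25a13 (2725 ± 905 bp), Asl (2643 ± 2557 bp), Otc (1874 ± 916 bp) and Nags (1458 ± 387 bp). The SD here runs over livers of different genotypes. The step from Cps1 to Slc25a13, 1879 bp, was the only one between neighbours that exceeded the larger of their SDs. With Asl measured from another start, described with its values, no step between neighbours did, so the order was not resolved into separate sets.

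The domains lay mostly downstream of the starts. The Cps1 domain began after the start in all 6 libraries, by 12 bp in F1 BM to 101 bp in F1 MB, and the share of the domain downstream of the start was 100% in every library for this gene. The median downstream share of the 7 genes was 80.7% in B6 replicate 1 and 89.0 to 100% in the other 5 libraries, where the medians over all genes were 76.1% and 94.3 to 100%. Asl was the exception, with a downstream share of 4.63 to 48.3%. Its annotated start lies beside that of another gene, as described with its values.

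**Figure D2:**
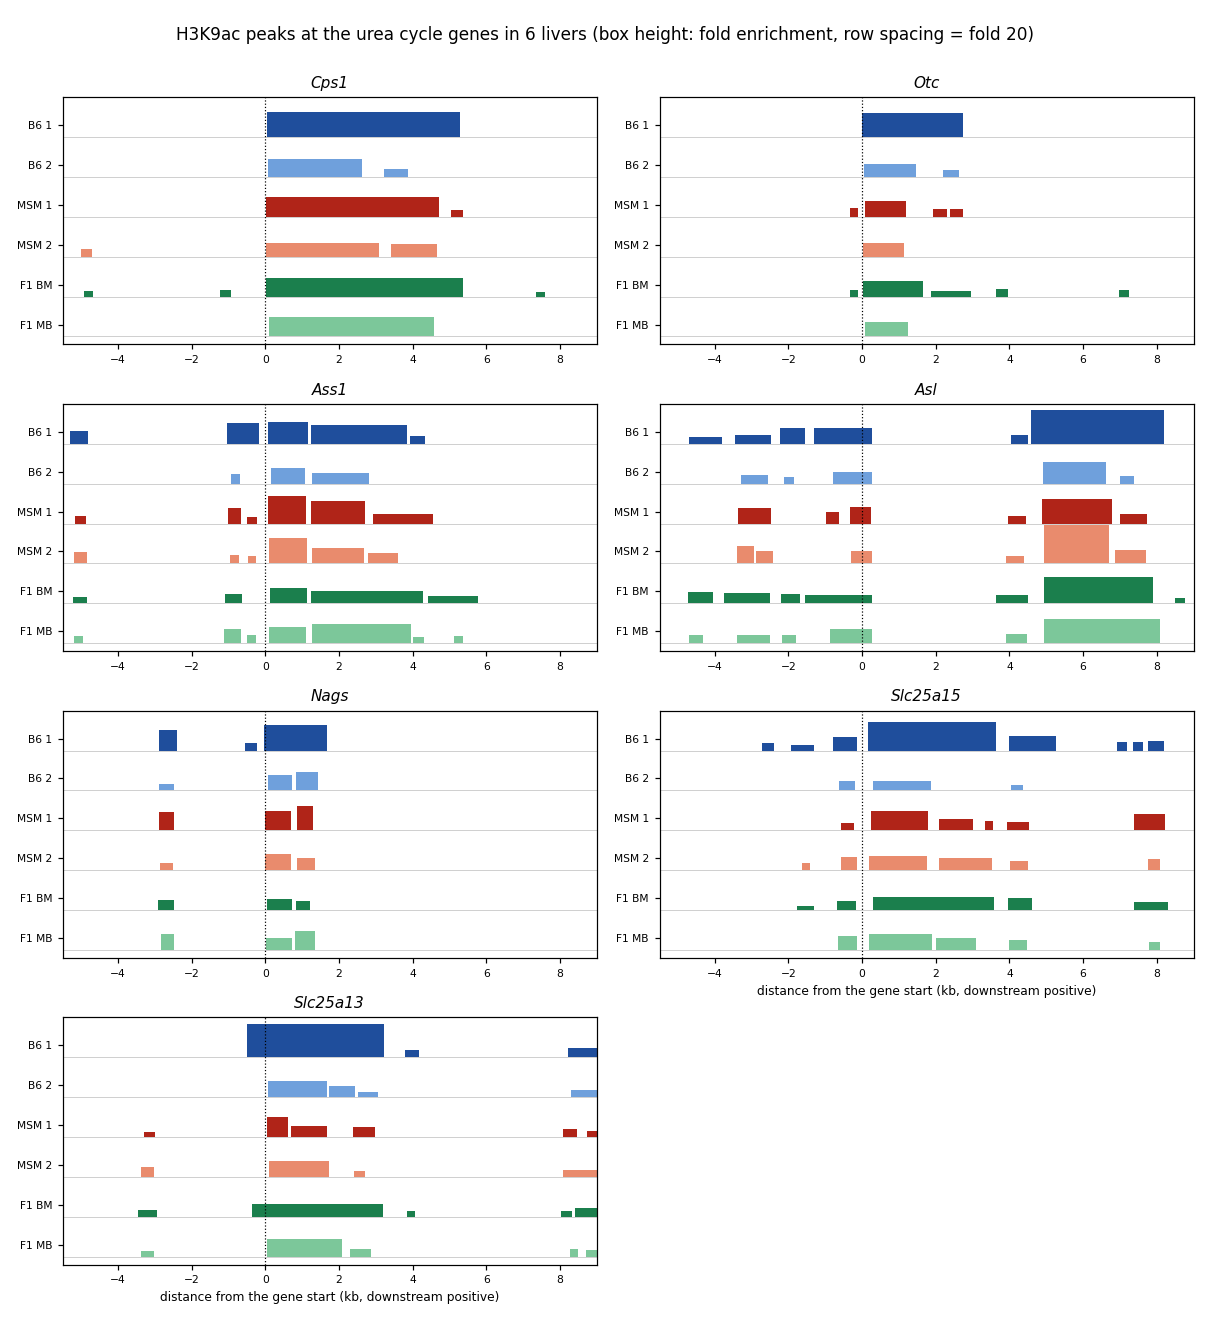
H3K9ac peaks of the 7 urea cycle genes in 6 livers (rows) by distance from the gene start (x axis, kb, downstream positive). Box height is the fold enrichment, with a row spacing of 20, and the dotted line is the gene start, after which most boxes lie, as for Cps1 in all 6 rows.

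Of the mitochondrial steps, Nags makes N-acetylglutamate, without which Cps1 is inactive. It is the shortest gene of the set (chr11:102145513-102149477, + strand) and had the narrowest domain by mean width, though not in every library, with 2233 and 1341 bp in the B6 libraries, 1320 and 1350 bp in the MSM libraries, 1153 bp in F1 BM and 1352 bp in F1 MB. The B6 replicate 1 value stood alone and the other 5 lay between 1153 and 1352 bp. In 5 libraries the domain consisted of a first peak that ended 695 to 734 bp after the start and a second that began 807 to 859 bp after it, and in B6 replicate 1 both ran together. The second summit lay in coding exon 2, near 1039 bp, and the antisense gene Gm11586 starts 733 bp into Nags.

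The third peak of Nags lay upstream, with its summit between -2694 and -2655 bp in all 6 libraries, so at nearly the same base across both strains and both crosses. Its fold enrichment was 10.1 and 3.31 in the B6 libraries, 8.96 and 3.43 in the MSM libraries, 4.88 in F1 BM, with 7.83 in F1 MB. The spread within each strain thus exceeded the step between the strains (MSM minus B6 -0.488, pooled SD 4.36). No other annotated gene spans this summit, and its sequence is the Nags stretch printed above.

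Peaks covered 2532 and 1628 bp of the Nags window in the B6 libraries and 1581 and 1534 bp in the MSM libraries, with 1466 bp in F1 BM and 1650 bp in F1 MB. Both B6 values lay above both MSM values, 2080 ± 639 against 1557.5 ± 33.2 bp (SD, n = 2 each), a difference of -522.5 bp for MSM minus B6 beside a pooled SD of 453 (exact permutation test, two-sided, p = 0.333, the lowest that 4 libraries allow). Nags was the only gene of the 7 covered more in both B6 libraries, against 11.6% of all genes with a peak, and none was covered more in both MSM libraries, against 4.97%. Without B6 replicate 1 the difference was -70.5 bp.

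Cps1 encodes carbamoyl phosphate synthetase, which fixes ammonia in the mitochondrion and is among the most abundant proteins there. On chr1:67123026-67231259 (+ strand), its domain was 5245 and 2562 bp wide in the B6 libraries, 5328 and 4647 bp in the MSM libraries, 5356 bp in F1 BM and 4486 bp in F1 MB. Only B6 replicate 2 was low, and there a further peak from 3220 to 3884 bp was left out of the domain by the joining distance. The highest fold enrichment was 12.6 and 8.995 in B6, 9.91 and 6.71 in MSM, 9.44 in F1 BM, with 9.78 in F1 MB, and the strains overlapped. The summit lay in intron 1, between 1031 and 1468 bp after the start in all 6 libraries. Peaks covered at most 5.43% of the window of 113234 bp, and more than 5367 bp after the start only F1 BM had another peak, at 7489 bp.

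A weak peak far upstream of Cps1, with its summit at -4870 bp in MSM replicate 2 (fold 3.89) and at -4875 bp in F1 BM (fold 2.58), was absent from the lists of the other 4 libraries.

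Otc encodes ornithine transcarbamylase, which joins carbamoyl phosphate and ornithine, and is the only X-linked gene of the set (chrX:10252305-10321024, + strand). Its domain was 2743 and 1435 bp wide in the B6 libraries, 1531 and 1101 bp in the MSM libraries, 3289 bp in F1 BM and 1147 bp in F1 MB. B6 replicate 1 and F1 BM, the libraries with the most peaks, were high and the strains overlapped. The difference for MSM minus B6 was -773 bp. With equal numbers of peaks it was -972 bp and both B6 libraries were wider, as for 20.7% of all genes with a value. Without B6 replicate 1 it was -119 bp. All libraries had the summit of the main peak between 219 and 445 bp after the start, in intron 1, and the highest fold was 11.9 and 6.40 in B6, 8.17 and 7.08 in MSM, 7.87 in F1 BM and 7.12 in F1 MB. A small separate peak overlapped part of the printed promoter in MSM replicate 1 and F1 BM and was not called in the other 4 libraries. Its summit was at -234 bp in MSM replicate 1 (fold 4.21). In F1 BM it was at -268 bp (fold 3.39), just before the printed bases. The lists held a peak at the start of Xist in all 6 livers, and 0 to 9 peaks on the Y chromosome, and the part of sex in the Otc values was not tested.

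Of the cytosolic steps, Ass1 encodes argininosuccinate synthetase, which joins citrulline and aspartate (chr2:31470207-31520672, + strand). Its highest fold enrichment was 11.1 and 7.81 in the B6 libraries, 13.7 and 12.7 in the MSM libraries, 7.57 in F1 BM and 9.69 in F1 MB. Both MSM values lay above both B6 values, and both hybrids lay below the MSM values. Ass1 averaged 9.47 ± 2.35 in the B6 libraries and 13.2 ± 0.685 in the MSM libraries (SD, n = 2 each), so MSM was higher by 3.70 beside a pooled SD of 1.73 (exact permutation p = 0.333). The difference was 2.04 without B6 replicate 2 and 5.36 without B6 replicate 1. With 10 kb around the start it was 3.44 and the strains overlapped. Ass1 was the only gene of the 7 with a higher top fold in both MSM libraries, against 8.57% of all genes with a peak, and none had a higher one in both B6 libraries, against 9.29%.

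The width of the Ass1 domain did not follow the fold. It was 5381 and 2667 bp in B6, 5567 and 4555 bp in MSM, 5659 bp in F1 BM and 5451 bp in F1 MB, with the strains overlapping. The domain was made of several peaks with fixed breaks, one of them between 1086 and 1148 bp on its near side and 1230 and 1274 bp on its far side in all 6 libraries. Upstream, all 6 libraries had a peak with its summit between -875 and -418 bp. A farther peak, with summits from -5126 to -4982 bp, was called in 5 libraries and not in B6 replicate 2, with a fold of 2.97 to 6.23.

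Asl encodes argininosuccinate lyase, which releases arginine and fumarate (chr5:130011258-130029247, - strand). Crcp starts at -43 bp from its annotated start, on the other strand, so the peak there belongs to both genes. The strongest peak of the window was elsewhere, with its summit 5136 to 5728 bp into the gene and a fold enrichment of 16.8 and 10.9 in the B6 libraries, 12.4 and 19.4 in the MSM libraries, 12.97 in F1 BM and 12.3 in F1 MB. Those folds stood at percentile 98.04 or higher among all peaks of their library, with no strain higher in both libraries.

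This peak lies just after the start of the best supported Asl transcript, Asl-205, which begins 4866 bp into the gene record, and its summit in the strongest library was in the untranslated part of exon 2. Taken from that start, the Asl domain was 4167 and 2462 bp wide in B6, 3781 and 2795 bp in MSM, 4282 bp in F1 BM and 4191 bp in F1 MB. The strains then differed by -26.5 bp (pooled SD 985, exact permutation p = 1), where the domain at the shared start of Asl and Crcp, 5876 and 1058 bp in B6, 1230 and 578 bp in MSM, 5986 bp in F1 BM and 1132 bp in F1 MB, gave -2563 bp (pooled SD 2431, p = 0.667). Measured at its own start, Asl reached the 94.5th to 98.8th percentile of widths in the 6 libraries, and with its mean of 3613 ± 789 bp (SD, n = 6) it came between Cps1 and Slc25a13, 991 bp below the one and 888 bp above the other. The use of this start was chosen after the peaks were seen.

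Upstream of Asl, in the body of Crcp, lay 3 further regions. The region from -2223 to -1551 bp had a peak with a fold of 7.93 and 3.49 in the B6 libraries, 4.85 in F1 BM, with 4.25 in F1 MB, and no peak in either MSM library. It was the only one of 32 regions in the windows of the 7 genes present in both B6 libraries and neither MSM library, as were 3.29% of 25803 regions over the genome, so that a single such region is near the background share. Its summit was 1968 bp into Crcp.

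The next region upstream, from -3763 to -2425 bp, was called in all 6 livers. Its highest fold was 4.31 and 4.45 in the B6 libraries, 7.65 and 8.84 in the MSM libraries, 5.07 in F1 BM, with 4.35 in F1 MB. The mean over MSM of 8.25 exceeded the B6 mean of 4.38 by 3.86, beside a pooled SD of 0.603. Both hybrids were nearer to B6, the lower strain. Over all genes with a peak, the top fold lay below all 4 parental libraries for 36.6% in F1 BM and 20.4% in F1 MB. It lay above them for 0.83 and 2.86%. The folds of this region were read at different places. The summits lay at -2696 and -2707 bp in B6 and at -2650 and -2654 bp in the hybrids, but at -3260 and -3203 bp in MSM. MSM replicate 2 had a second peak with its summit at -2644 bp and a fold of 6.24. The last region, from -4738 to -3816 bp, was called in B6 replicate 1 and both hybrids only, with folds of 3.38 to 5.44.

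**Figure D3:**
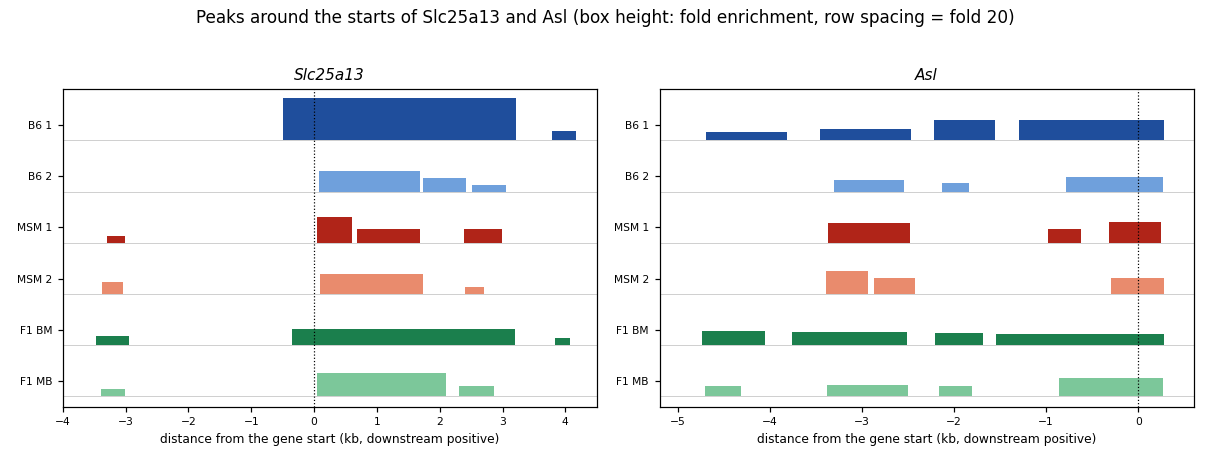
Peaks of the 6 livers (rows) around the starts of Slc25a13 (left) and Asl (right) by distance from the start (x axis, kb, downstream positive), with the fold enrichment as box height. Around 3 kb upstream of Slc25a13 only the MSM and F1 rows have a box, 2 kb upstream of Asl only the B6 and F1 rows have one, and the Slc25a13 boxes of MSM leave a gap after 1684 and 1736 bp that the other rows fill or nearly fill.

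Of the carriers, Slc25a13 encodes citrin, which exports the aspartate that Ass1 uses (chr6:6041218-6217173, - strand). Its start domain was 3719 and 2980 bp wide in the B6 libraries, 1637 and 1645 bp in the MSM libraries, 3551 bp in F1 BM and 2819 bp in F1 MB. Both MSM values lay below all 4 others and close to each other. The B6 mean was 3350 ± 523 bp and the MSM mean 1641 ± 5.66 bp (SD, n = 2 each), 2.04-fold wider in B6, a difference of -1708.5 bp for MSM minus B6 beside a pooled SD of 370 (exact permutation p = 0.333). It was the only one of the 7 genes with a wider start domain in both B6 libraries, against 16.7% of all genes with a start domain in the 4 libraries, and none was wider in both MSM libraries, against 5.42%.

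Part of the difference came with a gap inside the acetylated stretch. In the MSM libraries the domain ended 1684 and 1736 bp after the start, and a further peak, from 2393 to 2991 bp in replicate 1 and from 2398 to 2710 bp in replicate 2, lay 708 and 661 bp farther on, beyond the joining distance of 500 bp. B6 replicate 2 had a peak from 1740 to 2424 bp (fold 5.50) in that stretch, B6 replicate 1 and F1 BM had 1 unbroken peak across it, and F1 MB had a gap of 209 bp. With peaks up to 1000 bp apart joined the difference was -1039 bp, and both B6 libraries were still wider. With no joining it was -1566.5 bp and the strains overlapped.

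The region upstream of Slc25a13, from -3471 to -2946 bp, had a fold of 2.60 and 4.76 in the MSM libraries, 3.42 in F1 BM and 2.95 in F1 MB, while neither B6 list held it. It was the only one of the 32 regions present in both MSM libraries and neither B6 library, as were 3.38% of the regions over the genome. Its folds were low beside the 7.79 to 16.6 of the parental peaks at the start.

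Slc25a13 also had peaks far inside the gene. In intron 1, a region from 8031 to 9079 bp and another from 14632 to 15515 bp were called in all 6 livers. The latter had a fold of 5.71 and 6.64 in B6, 5.03 and 10.4 in MSM, 6.48 in F1 BM, with 5.20 in F1 MB, and in MSM replicate 2 it was the strongest peak of the gene. A region in intron 2 from 30571 to 32644 bp was called in 5 libraries and not in B6 replicate 2.

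Slc25a15 encodes the carrier that brings ornithine into the mitochondrion and takes citrulline out (chr8:22375551-22398597, - strand). Its start domain was 7985 and 2513 bp wide in the B6 libraries, 5107 and 4100 bp in the MSM libraries, 5275 bp in F1 BM and 3767 bp in F1 MB. The B6 libraries were the widest and the narrowest of the 6, so the strain means, 5249 ± 3869 and 4604 ± 712 bp (SD, n = 2 each), differed by far less than the replicates (-645.5 bp, pooled SD 2782, exact permutation p = 1). The fold at the start was 14.2 and 4.70 in B6, 9.66 and 6.88 in MSM, 6.72 in F1 BM, with 8.15 in F1 MB.

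The peak at the start of Slc25a15 had its summit 532 to 663 bp after the start in all 6 libraries. A separate peak on the other side, with summits from -350 to -289 bp, was also in all 6 and lies in 1810012K16Rik, a noncoding gene that starts at -124 bp on the other strand. Inside the gene, a peak near 4165 bp in intron 2 was called in all 6 libraries and one near 7938 bp in 5.

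**Figure D4:**
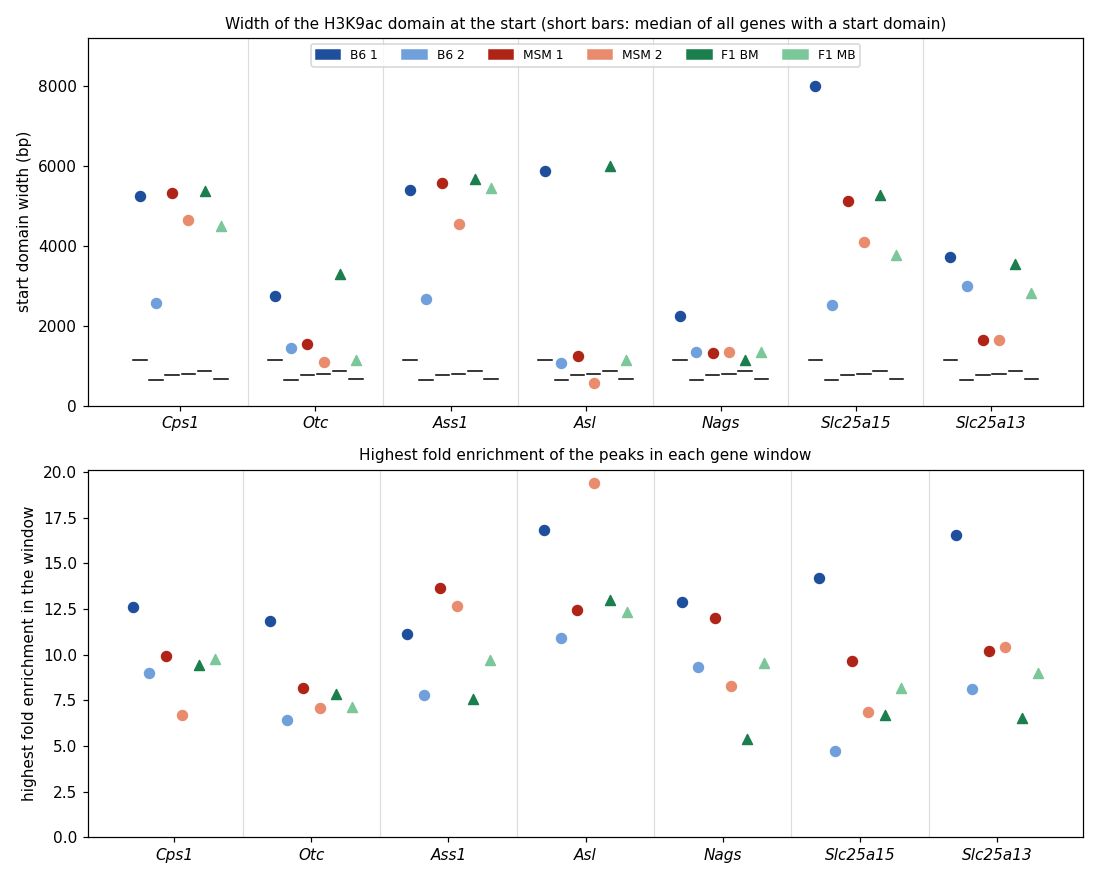
Width of the start domain (upper plot, bp) and highest fold enrichment in the window (lower plot, ratio) of each urea cycle gene in each library, with circles for the parental and triangles for the F1 libraries. Short black bars are the median width over all genes with a start domain in that library. In MSM, Slc25a13 is narrower than in all other libraries (1637 and 1645 bp), and the Ass1 fold of both MSM libraries (13.7 and 12.7) lies above the other 4.

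Across the windows of the 7 genes, the parental peaks formed 32 regions, of which 16 were called in all 4 parental libraries, 6 in B6 replicate 1 alone and 9 in any single library. Of the 16 shared regions, 2 had a higher fold in both MSM libraries, the one at the start of Ass1 and the one upstream of Asl, against 10.6% of 7777 shared regions over the genome. None had a higher fold in both B6 libraries, against 11% of them, and the other 14 overlapped. Over the 21 permutation tests of covered length, top fold and width, 3 reached the smallest possible p of 0.333, with a Benjamini-Hochberg adjusted p of 1, so that no difference here passed a test.

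The hybrids each had 1 library and no replicate error. In F1 BM, 4 of the 7 start domains (Cps1, Otc, Ass1 and Asl) were wider than in all 4 parental libraries, against 21.1% of all genes with a value, and 5 windows were covered more (those 4 and Slc25a13), against 13.3%. Nags was narrower and covered less than in all 4, against 8.3% and 4.94%. The top fold of 3 genes (Ass1, Nags and Slc25a13) was below all parental values in F1 BM, against 36.6%, and none was above them, against 0.83%. In F1 MB all 7 genes lay within the parental range in each measure. Over all genes, 2.13% were wider and 26.6% narrower there, 1.25% were covered more and 18.7% less, and 2.86% had a higher and 20.4% a lower top fold. F1 BM had the second longest covered length, 12.3 Mb, against 7.46 Mb in F1 MB, and the part of that difference in these counts was not tested. The 2 regions called in both libraries of one parental strain and neither of the other, upstream of Asl and of Slc25a13, were called in both hybrids.

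Of 25 other genes of ammonia, glutamine, arginine and urea handling, 13 had a start peak in all 6 livers, 9 had none at the start in any, and 6 had no peak in their window in any (Rhbg, Nos1, Nos2, Aldh18a1, Slc14a1 and Slc14a2). The Slc14a genes encode urea transporters. Of all 21911 protein-coding genes, 23.6% had a start peak in all 6 livers. Only 11446 of them had a peak in the window in at least 1 parental library. Of the 25, the widest mean domains were at Slc7a2 (5919 bp), Slc38a3 (5615 bp) and Got1 (4671 bp). Slc7a2 takes up cationic amino acids, Slc38a3 is a glutamine transporter and Got1 is the cytosolic aspartate transaminase. The Slc38a3 widths varied widely, from 348 bp in B6 replicate 2 and 1130 bp in F1 MB to 9208 bp in B6 replicate 1. The median width over the 11 of the 25 with a domain in all 6 livers was 2741 to 4314 bp in the 6 libraries. Within the same library it was above the median of the 7 urea cycle genes in both MSM libraries (1637 and 1645 bp for the 7). It was also above it in B6 replicate 2 (2741 against 2513 bp) and F1 MB (3497 against 2819 bp). In B6 replicate 1 and F1 BM it was below the median of the 7 (5245 and 5275 bp).

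Got1, whose product works with the Slc25a13 carrier in the malate-aspartate shuttle, was wider in both B6 libraries than in both MSM libraries, as Slc25a13 was, with 5389 and 5217 bp in B6, 2345 and 2351 bp in MSM, 7465 bp in F1 BM and 5258 bp in F1 MB. Got2, the mitochondrial transaminase of that shuttle, had overlapping widths, 3705 and 2889 bp in B6 and 3510 and 3548 bp in MSM, and a higher top fold in both MSM libraries, 15.7 and 17.8 against 8.15 and 7.44. Of the 25 genes, 3 (Glud1, Got2 and Nos3) had a higher top fold in both MSM libraries and 0 in both B6 libraries, against 8.57% and 9.29% of the genes with a peak in a parental library, which 6 of the 25 lacked in every library. Nos3 had no peak in either B6 library. These 3 were named for this after their values were seen. Agmat, which encodes agmatinase, was also wider in both B6 libraries, 3555 and 1599 against 1037 and 801 bp. Gpt2, the mitochondrial alanine transaminase, was wider in both MSM libraries, 4210 and 4291 against 3573 and 1783 bp. The 2 of these 11 wider in B6 and 1 wider in MSM are set against the 16.7% and 5.42% of all genes with a start domain given above.

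Of 9 regulators, 7 had a start peak in all 6 livers, against 23.6% of all protein-coding genes. Cebpa, the C/EBP factor of differentiated hepatocytes, had a mean start domain of 5845 bp, Cebpb one of 4401 bp, and Gcgr, the glucagon receptor, one of 3649 bp. Hnf4a and Nr3c1, the glucocorticoid receptor, had no peak at the start of the gene record but had peaks in the window in all 6 livers. Sirt5, a mitochondrial deacylase that acts on Cps1, was wider in both B6 libraries, 1070 and 607 bp against 501 and 549 bp in MSM. Of the 6 regulators with a start domain in all 6 livers, Sirt5 was the only one with a strain difference in width. Of all genes with a start domain, 16.7% were wider in B6. Sirt3, named after its values were seen, was the only one of the 9 with a difference in top fold. It was higher in B6, as were 9.29% of all genes with a peak, with 9.18 and 8.91 against 6.999 and 7.25 in MSM.

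The labelled tissue was checked with marker genes. All 8 hepatocyte markers (such as Alb and Ttr) had a start peak in all 6 livers, with a median domain of 2370.5 to 4170.5 bp. All 7 urea cycle genes had one as well, against 23.6% of all protein-coding genes. Of these 8 markers, 3 (Alb, Apoa1 and Fgb) were wider in both B6 libraries and 0 in both MSM libraries, against 16.7% and 5.42% of all genes with a start domain. A higher top fold in both B6 libraries was found for 2 (Fgb and Serpina1a) and in both MSM libraries for 0, against 9.29% and 8.57% of all genes with a peak. These markers were named after their values were seen. None of 4 Kupffer cell, 4 endothelial, 4 stellate, 4 cholangiocyte or 3 lymphocyte markers had a start peak in all 6. The Kupffer cell and stellate markers had no peak in their windows in any library. Of the endothelial markers, Stab2 and Kdr had a start peak in 4 libraries, Lyve1 in 2 and Pecam1 in 0. The cholangiocyte marker Sox9 and the lymphocyte marker Ptprc each had a start peak in 1.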

How the data were processed

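H3K9ac was measured in 6 adult livers (2 B6, 2 MSM, 1 F1 BM and 1 F1 MB). Members and gene lists were chosen with earlier results of these data known, and 2 further genes and 1 sequence are not reported here. Livers were fixed with formaldehyde and read pairs were mapped by the authors to mm10 (GRCm38) after Trim Galore; the mapper was Bowtie 2 in the study's methods and HISAT2 in the submitters' processing notes, which also list SAMtools and MACS2. The deposited files were peak lists, 1 per library, and whether input served as control is not given in the sources used here. The reference is the B6 sequence, so MSM reads over differing sequence could be lost.

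The deposited lists gave, for each peak, a fold enrichment (a ratio over the caller's background), the −log10 of the p-value and of the q-value as the authors' caller wrote them, and a score, which was not used. The lowest −log10 q was 1.30 to 1.35, near a q of 0.05. The lists hold no read counts, and the read totals stated by the study were not used here.

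Gene starts came from GENCODE M21, 1 record for each of 21911 symbols (the longest gene). Covered length and top fold were taken over the gene body and 5 kb around the start, with an overlap of at least 1 bp. A peak within 1 kb was at the start. Strains were called different when both libraries of one exceeded both of the other, and single values were tested by two-sided exact permutation over 6 assignments (smallest p 0.333). Replicates were separate samples by the labels. Named were all 7 members. Of the other pathway genes and the regulators, the 3 widest, those without any peak and those whose strains did not overlap in width were named. Hnf4a and Nr3c1 were named as well, as regulators with peaks in the window but none at the start. Alternatives were filters, equal list sizes, window, joining and overlap distances, ranks, leaving out each library and a replicate block. A further alternative took, for every gene, the start of its best supported transcript. The comparison of folds in shared regions, the F1 counts, the upstream stretches printed and the count of repeated runs were chosen after values were seen. Motifs were searched in RefSeq promoters. Python 3.11.15, numpy 2.4.6 and matplotlib 3.10.9 were used, and the functions were tested on simulated data.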

Additional observations from a re-analysis of the deposited data

How the results depend on the processing

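The count of 7 start peaks held under every alternative run. Nags stayed covered more in B6 under every alternative that measures it. Slc25a13 stayed wider in B6 in all but the setting without joining, and Ass1 stayed higher in MSM in all but the window of 10 kb. The counts themselves moved, and the causes were not tested. With equal numbers of peaks (11619) or a −log10 q of at least 5, 2 genes (Otc and Nags) were covered more in B6. Of all genes with a value, as in the shares that follow, 19.3 and 11% were. In these settings 2 (Otc and Slc25a13) were wider in B6 (20.7 and 16.9%). With equal covered length (6.28 Mb) these counts were 4 and 4 (15.6 and 25.2% of all genes). With 10 kb around the start, 1 gene (Cps1) was covered more in MSM (4.87% of all genes) and 0 had a higher fold there (8.48%). With peaks joined within 0 bp, 2 were wider in B6 (Otc and Asl, against 19.1% of all genes). With ranks within each library, 2 genes were covered more in MSM and 3 in B6 (20.3 and 26.5% of all genes), 2 had a higher fold in B6 (26.3%), and 2 were wider in MSM and 4 in B6 (21.4 and 18.7%).

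With the replicate number as a block, 2 genes were covered more in B6 (17.2% of all genes), 2 had a higher fold in B6 (14.9%), and 2 were wider in MSM and 3 in B6 (10 and 25.5%). The numbers did not pair the samples: same-numbered libraries deviated from their strain means with correlations of -0.021 for covered length, -0.024 for fold and -0.029 for width.

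With each parental library left out in turn, the genes covered more numbered 0 to 4 in MSM and 1 to 7 in B6, those with a higher fold 1 to 5 in MSM and 0 to 5 in B6, and those wider 0 to 3 in MSM and 1 to 5 in B6. The upper ends came from the B6 libraries: without B6 replicate 1, 61.2% of all genes were covered more, 60.2% had a higher fold and 61.8% were wider in MSM, and without B6 replicate 2 these shares were 84.2, 69.8 and 79.7% in B6. The unequal B6 lists therefore limit every strain comparison here.

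Of the 21 differences between strains (7 genes, 3 measures), 13 had another sign under at least 1 alternative. Those of Nags in covered length, Ass1 in fold and Slc25a13 in width did not. Neither did those of Otc in covered length, Cps1 in fold, and Otc, Asl and Nags in width, where the strains overlapped. Cps1, Ass1, Asl and Slc25a15 were covered more in MSM without B6 replicate 1 and covered more in B6 without B6 replicate 2. The folds of single regions were not run under the alternatives.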
